A study of Mus musculus with 10 samples.

Results

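DNA replication machinery is taken here as a list of 48 genes whose products load, start and run the replication fork. Mcm10, whose expression ZBTB38 inhibits in earlier work that the paper cites, was left out of this list. The members were chosen by function from a supplied list, and 48 of 48 were found among 22380 genes quantified. They fall into 7 roles: licensing of origins with 9 genes, the MCM helicase family with 8, helicase activation with 8, polymerases and primase with 9, the sliding clamp with its loader and the single-strand binding complex with 9, Okazaki fragment joining with 2, and deoxynucleotide synthesis with 3. Every one of the 48 passed the filter on low counts in each comparison, and none lies on chromosome 9, which carries Zbtb38.

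Replication origins are licensed in G1, when the origin recognition complex with CDC6 and CDT1 loads a ring of MCM proteins onto DNA, and geminin then holds CDT1 in check so that an origin is used once per cycle. In S phase CDC7 and DBF4 kinase, CDC45 and the GINS complex turn the ring into a moving helicase, DNA polymerase alpha lays primers, and polymerases delta and epsilon extend them on the PCNA clamp. Germinal center B cells are known as rapidly dividing cells that mutate and select their antigen receptors.

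RNA-seq was performed on antigen-specific germinal center B cells, sorted by NP binding and surface markers 2 weeks after immunization of mice with NP-OVA. The WT group (n = 2) was Zbtb38fl/fl without Cre, the HET group (n = 2) carried 1 floxed and 1 intact allele with Vav-Cre, and the KO group (n = 6) was Zbtb38fl/fl x Vav-Cre, all of strain C57Bl6/N. According to the paper the floxed allele was made in C57Bl6/J zygotes and the mice were backcrossed to C57Bl6/N. Vav-Cre is active mainly in hematopoietic cells, and the floxed exon came from a single founder. WT cells lacked Cre while HET and KO cells carried it, so Cre and loss of an allele cannot be told apart in comparisons with WT. ZBTB38 is a zinc finger protein that binds methylated DNA, and the comparisons ask whether its loss moved the transcripts of the replication genes. Deposited estimated counts summed to 41059082 and 27462439 in WT, 32191770 and 28412924 in HET, and from 26612431 to 33894832 in KO. Levels are given in TPM, which scales reads to transcript length and library total so that different genes can be set side by side.

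Zbtb38 itself (ENSMUSG00000040433.16, chr9:96682770-96752831, minus strand; positions here and below are from Gencode vM21 on GRCm38) was measured first as a check of the labels. It stood at 63.5 and 63.3 TPM in the WT libraries, 49.6 and 49.6 in the HET libraries and 20.1, 46.1, 23.7, 23.7, 23.5 and 17.5 in KO replicates 1 to 6. On normalized CPM, counts scaled to library size with TMM factors and not to transcript length, it stood at 162 and 152 in WT, 117 and 106 in HET and 18.6 to 50.3 in KO, so every KO library lay below every HET library and both HET libraries below both WT libraries on either scale. KO replicate 2 was the highest of the KO libraries on both. According to the paper the floxed exon is the last of the gene and holds all of its coding sequence. The paper reports that aligned reads within this exon were absent in KO and intermediate in HET. The TPM and counts used here are summed over whole transcripts, so they do not measure loss of that exon alone. The part of reads outside it in the KO values was not tested. The log2 fold change was -2.31 ± 0.27 (SE) in KO against WT (edgeR, Benjamini-Hochberg adjusted p = 0.0734) and -2.08 ± 0.23 in KO against WT plus HET (edgeR adjusted p = 0.0104), while KO against HET gave -1.82 ± 0.26 (edgeR adjusted p = 0.128) and HET against WT -0.49 ± 0.35 (edgeR adjusted p = 0.873). The KO against WT call did not hold without WT replicate 1 or 2, at log2 fold changes of -2.26 and -2.36 (edgeR adjusted p = 1.000 and 1.000), nor without KO replicate 1, 3, 4 or 5, at -2.26, -2.34, -2.32 and -2.27 (edgeR adjusted p = 0.301, 0.260, 0.267 and 0.425). It was also lost on log2(TPM + 1) in limma, at -1.34 (limma adjusted p = 0.662), and on length-scaled counts, at -1.19 (edgeR adjusted p = 1.000). Over all alternatives its adjusted p by edgeR, DESeq2 or limma ran from 8.61e-09 to 1.000. The KO against WT plus HET call was kept without any single library (edgeR adjusted p = 0.00162 to 0.0789) but lost on log2(TPM + 1) in limma, at -1.16 (limma adjusted p = 0.686), and on length-scaled counts, at -1.04 (edgeR adjusted p = 0.680), within a range of 3.48e-13 to 0.695. This call and that of KO against WT were also lost with the replicate number as a block, as given in the last paragraph. In KO against HET the gene was called by DESeq2 (-1.82, DESeq2 adjusted p = 2.60e-06), with no filter on low counts (edgeR adjusted p = 0.0693), without KO replicate 2 (edgeR adjusted p = 0.0197) and without KO replicate 6 (edgeR adjusted p = 0.0505), within a range of 2.60e-06 to 0.921.

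The 10 germinal center B cell markers were all at 1 TPM or more in every library. Their summed TPM was 5012 and 5396 in WT, 5328 and 5415 in HET and 5765, 5979, 5142, 5339.7, 4542 and 4577 in KO replicates 1 to 6, with Cd79a the most abundant. The 8 markers of cycling cells were also at 1 TPM or more throughout, and their sum was 1482 and 1218 in WT, 1611 and 1734 in HET and 1410.1, 1588, 1548, 1434, 1650.0 and 1292 in KO replicates 1 to 6. In both HET libraries that sum lay above both WT libraries, and 0 of the 8 had a HET mean below the WT mean.

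Markers of other cells differed between libraries, and several lists were lower in HET than in WT. The summed TPM of the 10 myeloid markers, led by Lyz2, was 709 and 576 in WT, 99.5 and 104 in HET and 112, 94.7, 314, 997, 305 and 263 in KO replicates 1 to 6, and 10 of 10 had a lower mean in HET than in WT. Of these, Fcgr1 and Marco were at 0 in some libraries. The summed TPM of the 10 naive B cell markers, led by Fcer2a, was 841 and 966 in WT, 482 and 504 in HET and 459, 748, 606, 1031, 512 and 1072 in KO replicates 1 to 6, with 9 of 10 lower in HET than in WT. The HET libraries were thus lowest for myeloid cells apart from KO replicate 2, and lowest for naive B cells apart from KO replicate 1. The 10 T cell markers, led by Cd2, had a summed TPM of 359 and 406 in WT, 221 and 242 in HET and 289, 270.4, 262, 337, 268 and 324 in KO replicates 1 to 6. Among them Cd3e, a part of the T cell receptor complex, was at 19.8 and 15.5 in WT, 1.74 and 4.68 in HET and 3.85 to 8.52 in KO. The 8 plasma cell markers, led by Jchain, had a summed TPM of 2916 and 2675 in WT, 2533 and 2434 in HET and 2746, 2545, 3050.1, 2831, 3000.1 and 2571 in KO replicates 1 to 6, and Tnfrsf17 was at 0 in HET replicate 1. The 6 erythroid markers, led by Hbb-bt, had a summed TPM of 133 and 187 in WT, 114 and 104 in HET and 216, 185, 257, 246, 176 and 251 in KO replicates 1 to 6, with Alas2 at 0 in 2 libraries. In bulk samples fewer cells of a type and less RNA per cell cannot be told apart, and the part of these other cells in the values below was not tested.

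One KO library, replicate 6, was the least like the rest. Its median correlation with them over log2(CPM + 1) was 0.954, against 0.971 to 0.983 for the rest, and 8.58% of genes with a mean of 1 to 5 CPM elsewhere were at 0 in it, against 0.631% to 5.94% in the others. Libraries also differed by transcript length. The third of genes with the longest transcripts had a median deviation from the gene's mean over libraries of -0.24 (log2) in KO replicate 1, -0.10 in replicate 3 and -0.16 in replicate 6, while the third with the shortest transcripts had 0.24, 0.083 and 0.093. The replication genes followed the same split: the 24 members with the longer lead transcripts had a median deviation of -0.17 in KO replicate 1 and -0.35 in replicate 6, and the other 24 had 0.30 and 0.017. The part of transcript length in the levels of single members was not tested. The members' median fold change in each comparison of KO is given with and without KO replicate 6.

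The libraries also split by transcripts of the Y chromosome, a split seen after the data were examined. The sex of the mice was not given in the sources used here. The summed TPM of 4 Y-linked genes, Ddx3y, Eif2s3y, Kdm5d and Uty, was 109.8 and 156 in WT, 0.640 and 0.487 in HET and 88.8, 145, 0.917, 1.77, 129 and 1.44 in KO replicates 1 to 6. Both WT libraries and KO replicates 1, 2 and 5 thus stood above 10 TPM, and both HET libraries and KO replicates 3, 4 and 6 below 2. Between HET and WT alone, genotype and this split cannot be told apart, and a fit with a term for the split separates them only through the KO libraries. The comparisons below are also given from such a fit by edgeR, and KO is set against WT among the 5 libraries above 10 TPM and against HET among the 5 below 2, all chosen after seeing the data. For Zbtb38 the fit with the term gave a log2 fold change of -2.18 in KO against WT, where the call was lost (edgeR adjusted p = 0.499), -2.07 in KO against WT plus HET (edgeR adjusted p = 0.0121), -1.95 in KO against HET (edgeR adjusted p = 0.142) and -0.23 in HET against WT (edgeR adjusted p = 0.943). Among the 5 libraries above 10 TPM the KO against WT value was -2.18 (edgeR adjusted p = 0.202), and among the 5 below 2 the KO against HET value was -1.94 (edgeR adjusted p = 0.354). In HET against WT the gene was called by the fit on the WT and HET libraries alone, at -0.50 (edgeR adjusted p = 0.0877), and over the alternatives the adjusted p lay between 0.0877 and 1.00. The ranges of the other comparisons are given above.

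Replication genes were abundant in these cells. The median member stood at 104 TPM averaged over the 10 libraries, against 11.6 TPM for all genes tested, and 25 of 48 had a mean over 100 TPM, 19 between 20 and 100 and 4 under 20. All 48 were at 1 TPM or more in every library. Between KO libraries the members varied less than genes at large, with a median coefficient of variation of 15.7% against 31.9%, a comparison that does not adjust for their higher level. The median member differed 1.65-fold between its highest and lowest library, and 12 members differed by more than 2-fold.

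**Figure D1:**
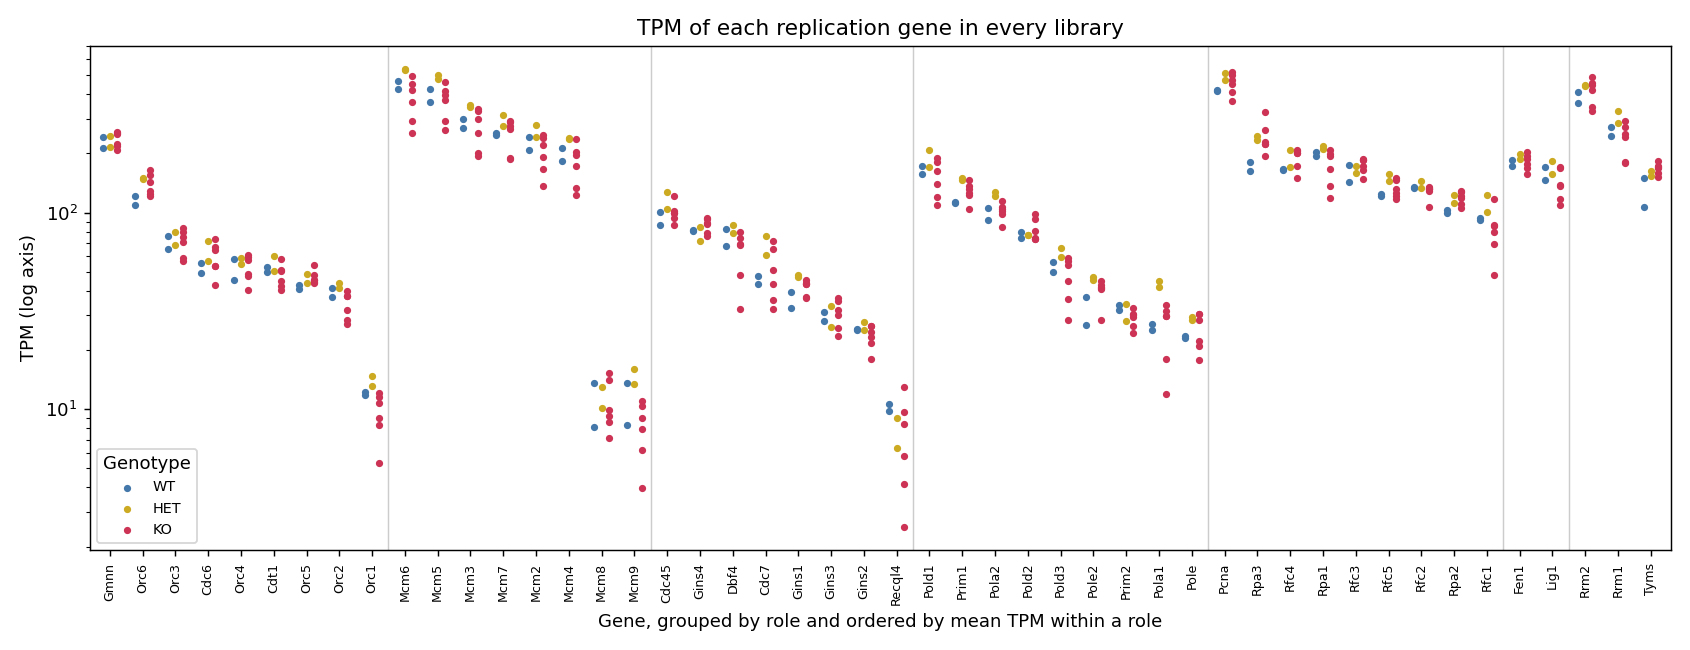
TPM of each of the 48 replication genes (log axis) in every library, grouped by role with grey lines between roles and ordered by mean TPM within a role; each point is 1 library (2 WT, 2 HET, 6 KO). KO and WT points overlap for most genes, and Mcm8, Mcm9, Orc1 and Recql4 lie below the rest of their roles.

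Among the licensing genes Gmnn, which encodes geminin, the inhibitor of CDT1, had the highest level (ENSMUSG00000006715.11, chr13:24751845-24761923, minus strand), at 213 and 243 TPM in WT, 214 and 244 in HET and 208 to 256 in KO (median 237). Orc6, the smallest subunit of the origin recognition complex (ENSMUSG00000031697.12, chr8:85299632-85308278, plus strand), stood at 121 and 109 TPM in WT, 149 and 148 in HET and 121 to 164 in KO (median 136). Gmnn overlapped across all genotypes, while both HET values of Orc6 lay above both WT values and KO overlapped WT. Cdc6, the ATPase that helps the recognition complex load MCM rings (ENSMUSG00000017499.15, chr11:98907801-98923940, plus strand), stood at 55.2 and 49.4 TPM in WT, 56.7 and 71.3 in HET and 43.1 to 73.2 in KO (median 58.9). Orc5 (ENSMUSG00000029012.11, chr5:22486485-22550429, minus strand) stood at 43.0 and 40.7 TPM in WT, 48.9 and 44.0 in HET and 43.9 to 53.8 in KO (median 45.4), with all 6 KO values above both WT values. The other origin recognition subunits ran from a mean of 36.6 TPM for Orc2 through 53.1 for Orc4 to 71.5 for Orc3, and Cdt1, the loading factor that geminin binds, ran from 40.2 to 59.8 TPM over the libraries. Orc1, whose product in many cells is removed after G1, was the lowest licensing gene (ENSMUSG00000028587.18, chr4:108579423-108614833, plus strand), at 12.3 and 11.8 TPM in the WT libraries, 14.8 and 13.1 in the HET libraries and 9.07, 5.32, 8.32, 10.7, 11.5 and 12.1 in KO replicates 1 to 6. It varied 2.79-fold between libraries and was lowest in KO replicate 2.

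The 6 subunits of the replicative helicase, MCM2 to MCM7, were all among the more abundant members. Mcm6 was the highest of them (ENSMUSG00000026355.11, chr1:128331590-128359664, minus strand), at 467 and 423 TPM in the WT libraries, 529.8 and 538 in the HET libraries and 292, 421, 366, 451, 494 and 254 in KO replicates 1 to 6. Mcm5 (ENSMUSG00000005410.6, chr8:75109569-75128439, plus strand) stood at 427 and 365 TPM in WT, 479.6 and 502 in HET and 261 to 460.4 in KO (median 385). For both genes the 2 HET values lay above the WT and the KO values, and KO overlapped WT. Mcm3 had a mean of 283 ± 20.1 TPM (SD) in WT, 348 ± 5.28 in HET and 269 ± 61.6 in KO, and Mcm4 197 ± 21.1, 238 ± 0.517 and 177 ± 43.3. Mcm7 had 250.4 ± 3.17, 294 ± 25.3 and 249 ± 48.8, and Mcm2 225 ± 24.0, 260.2 ± 25.6 and 201 ± 43.7. In each of the 6, KO replicates 1 and 6 were the lowest of the KO libraries, for example at 292 and 254 TPM for Mcm6 and 201 and 195 for Mcm3. Mcm8 and Mcm9 encode a separate helicase pair known for its role in recombination, and they were expressed far lower. Mcm8 had a mean of 10.8 ± 3.84 TPM (SD) in WT, 11.6 ± 2.05 in HET and 10.7 ± 3.23 in KO. Mcm9 (ENSMUSG00000058298.8, chr10:53536315-53630439, minus strand) stood at 8.35 and 13.6 TPM in the WT libraries, 13.4 and 15.9 in the HET libraries and 7.90, 11.1, 6.18, 10.4, 8.98 and 3.99 in KO replicates 1 to 6, with every KO value below both HET values and the 2 WT values overlapping both groups.

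Helicase activation genes were of moderate level. Cdc45, part of the active helicase, stood at 100.4 and 86.3 TPM in WT, 104 and 127 in HET and 86.5 to 122 in KO (median 99.3). Of the 4 GINS subunits, Gins4 (ENSMUSG00000031546.6, chr8:23226616-23237659, minus strand) stood at 80.7 and 81.8 TPM in WT, 84.3 and 71.3 in HET and 76.2 to 93.7 in KO (median 88.0), and the means of Gins1, Gins3 and Gins2 over all libraries were 41.7, 30.3 and 24.5 TPM. Genes whose products form 1 complex thus differed in level, and genotypes overlapped for Gins4. Cdc7, the kinase that fires licensed origins (ENSMUSG00000029283.17, chr5:106964322-106984432, plus strand), stood at 47.3 and 43.3 TPM in WT, 61.1 and 75.8 in HET and 32.4 to 71.3 in KO (median 47.0), and its activating subunit Dbf4 at 82.3 and 67.9 TPM in WT, 78.2 and 86.1 in HET and 32.2 to 79.4 in KO (median 68.9). Both Cdc7 values of HET lay above WT, and the KO libraries overlapped both groups. Recql4, a helicase of the RecQ family, was the lowest of the 48 (ENSMUSG00000033762.8, chr15:76703553-76710548, minus strand), at 9.83 and 10.6 TPM in the WT libraries, 6.35 and 9.01 in the HET libraries and 2.52, 12.9, 5.77, 9.64, 8.43 and 4.17 in KO replicates 1 to 6. It was the most variable member, with a 5.12-fold difference between its highest and lowest library.

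Polymerase alpha and primase form the complex that starts each new strand. Its catalytic subunit gene Pola1 (ENSMUSG00000006678.6, chrX:93304767-93632155, minus strand) stood at 27.2 and 25.3 TPM in WT, 41.6 and 44.7 in HET and 11.9 to 33.8 in KO (median 29.7), and its second subunit gene Pola2 (ENSMUSG00000024833.14, chr19:5940542-5964202, minus strand) at 106 and 91.9 TPM in WT, 121 and 127 in HET and 84.4 to 115 in KO (median 103). For both, the HET values lay above all WT and all KO values. The small primase subunit gene Prim1 (ENSMUSG00000025395.14, chr10:128015168-128030037, plus strand) stood at 113 and 112 TPM in WT, 150.1 and 146 in HET and 105 to 147 in KO (median 129), and Prim2, which encodes the large subunit, at 31.8 and 33.9 TPM in WT, 28.1 and 34.4 in HET and 24.5 to 32.9 in KO (median 29.8). Prim1 was higher in HET than in WT without overlap, and the KO libraries overlapped both groups. Polymerase epsilon copies the leading strand. Its catalytic gene Pole (ENSMUSG00000007080.14, chr5:110286306-110337474, plus strand) stood at 23.6 and 23.1 TPM in WT, 29.3 and 28.6 in HET and 17.7 to 30.6 in KO (median 25.3), and Pole2 (ENSMUSG00000020974.6, chr12:69201773-69228195, minus strand) at 37.3 and 26.9 TPM in WT, 47.3 and 45.4 in HET and 28.4 to 44.9 in KO (median 41.6). Both were higher in the 2 HET than in the 2 WT libraries, with KO overlapping WT and, for Pole, also HET. Of polymerase delta, which copies the lagging strand, Pold1 had a mean of 165 ± 10.6 TPM (SD) in WT, 189 ± 26.2 in HET and 150.2 ± 32.3 in KO, Pold2 (ENSMUSG00000020471.11, chr11:5872180-5878292, minus strand) had 76.9 ± 4.30, 76.6 ± 0.0251 and 82.1 ± 10.7, and Pold3 had a mean of 51.0 over all libraries.

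Pcna, the sliding clamp that holds polymerases on DNA, was the most abundant of the 48 (ENSMUSG00000027342.14, chr2:132249162-132253314, minus strand), at 420.4 and 416 TPM in the WT libraries, 514 and 471 in the HET libraries and 469.8, 451, 519, 409, 501 and 369.8 in KO replicates 1 to 6. The clamp is placed by the 5 replication factor C subunits. Of these, Rfc4 stood at 165 and 166 TPM in WT, 169.8 and 209 in HET and 149 to 209 in KO (median 201), and Rfc3 (ENSMUSG00000033970.15, chr5:151642756-151651242, minus strand) at 174 and 143 TPM in WT, 172 and 159 in HET and 149 to 188 in KO (median 178). Rfc5, Rfc2 and Rfc1 had means of 134, 131 and 89.6 TPM, and Rfc1, the large subunit, was the most variable of the 5, from 48.4 in KO replicate 6 to 122 in HET replicate 2. Replication protein A coats single-stranded DNA at the fork as a trimer. Rpa1 stood at 202 and 193 TPM in WT, 211 and 218 in HET and 118 to 208 in KO (median 181), Rpa2 (ENSMUSG00000028884.14, chr4:132768332-132778752, plus strand) at 103 and 99.4 TPM in WT, 123 and 112 in HET and 105 to 128 in KO (median 119.9) and Rpa3 (ENSMUSG00000012483.4, chr6:8255936-8259173, minus strand) at 181 and 162 TPM in WT, 245 and 234 in HET and 194 to 325 in KO (median 226). All KO and both HET values of Rpa2 and Rpa3 lay above both WT values, whereas Rpa1 overlapped between KO and WT. Rpa3 has a lead transcript of 670 bases and was highest in KO replicate 1, where short transcripts were high in general.

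The flap endonuclease gene Fen1 stood at 184 and 173 TPM in WT, 187 and 199 in HET and 157 to 203 in KO (median 182), and Lig1, the ligase that seals Okazaki fragments, at 170.2 and 146 TPM in WT, 157 and 183 in HET and 109 to 169.5 in KO (median 137). Neither separated WT from KO. Ribonucleotide reductase makes the deoxynucleotides that forks consume. Its S phase subunit gene Rrm2 (ENSMUSG00000020649.11, chr12:24708241-24714146, plus strand) stood at 411 and 361 TPM in the WT libraries, 439 and 446 in the HET libraries and 344, 490.1, 422, 442, 456 and 329 in KO replicates 1 to 6, and Rrm1 at 271 and 245 TPM in WT, 285 and 327 in HET and 179 to 291 in KO (median 246). Tyms, which encodes thymidylate synthase (ENSMUSG00000025747.12, chr5:30058202-30073617, minus strand), stood at 150.2 and 107 TPM in WT, 154 and 162 in HET and 152 to 183 in KO (median 169). All 6 KO values and both HET values of Tyms lay above both WT values, and WT replicate 2 was the lowest library. Tyms has 6 annotated transcripts here, of which the lead one, 618 bases long, carried 55.2% of its TPM.

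Summed over all 48 genes, TPM was 6414 and 5923 in WT, 7051 and 7384 in HET and 5569, 6881, 6293, 6508, 7019 and 5000.1 in KO replicates 1 to 6. The mean was 6169 ± 347 (SD, n = 2) in WT, 7218 ± 236 (n = 2) in HET and 6212 ± 784 (n = 6) in KO, so the KO mean was 101% and the HET mean 117% of WT. Both HET libraries lay above every WT and KO library, and the KO libraries ran from below to above both WT libraries. Without KO replicate 6 the KO mean was 105% of WT. By role, the MCM sum in KO was 91.3% of WT, the lowest of the 7 roles, with 1257 and 1199.6 TPM in KO replicates 1 and 6 and 1642 or more in the other 4. The clamp, loader and single-strand binding sum was 108% of WT, the highest.

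**Figure D2:**
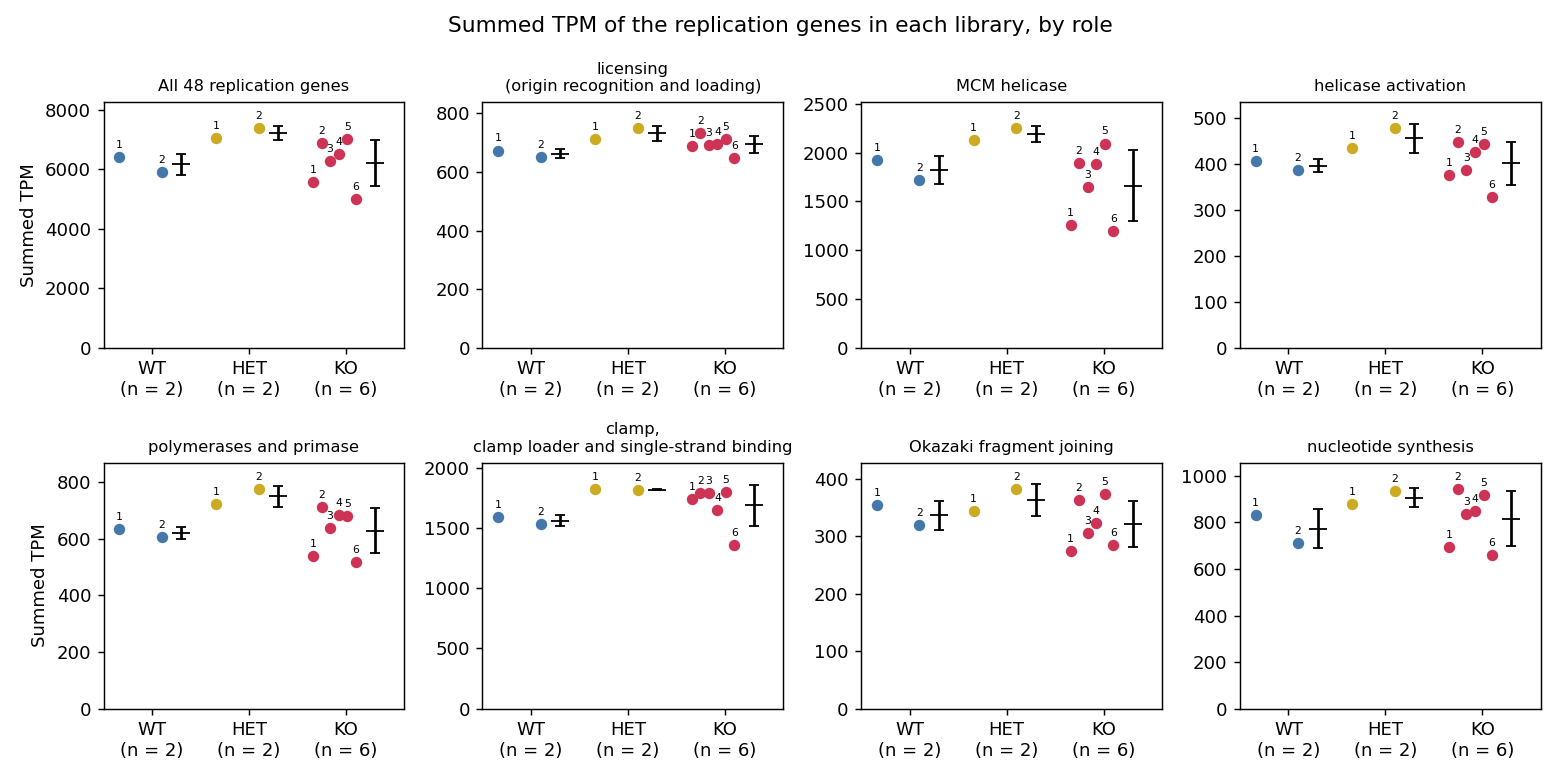
Summed TPM of all 48 replication genes and of each role (axes start at 0); each point is 1 library with its replicate number, and the black bar is the mean with its SD. HET replicates 1 and 2 lie highest in the sum of all 48, at 7051 and 7384, and KO replicate 6 lowest, at 5000.1.

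Counting genes in place of summing them, the number of the 48 above their own median TPM over the 10 libraries was 23 and 10 in WT, 40 and 42 in HET and 10, 33, 15, 28, 34 and 5 in KO replicates 1 to 6. The percent of all genes tested that lay above their own median TPM was 58.0 and 61.0 in WT, 50.2 and 54.2 in HET and 26.3, 62.5, 36.8, 68.0, 44.3 and 34.7 in KO replicates 1 to 6. On normalized CPM the members counted 16 and 4 in WT, 38 and 39 in HET and 24, 22, 24, 13, 44 and 16 in KO replicates 1 to 6. The percent of all genes above their own median CPM was 51.5 and 51.7 in WT, 48.2 and 48.6 in HET and 46.4 to 52.0 in KO. On TPM the HET libraries had the highest counts, while on CPM KO replicate 5 had the highest count and the HET libraries came next. KO replicates 4 and 1 shifted most between the scales, by 15 and 14 members. Single members were lowest of all 10 libraries in KO replicate 6 for 22 genes and in KO replicate 1 for 11, and highest in HET replicate 2 for 22.

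KO was set against WT to ask whether loss of ZBTB38 moved the replication genes. No member passed the test: edgeR, with p adjusted by Benjamini-Hochberg over 14203 genes, called 0 of the 48 replication genes at an adjusted p under 0.1, against 0.00704% of all genes tested. DESeq2 called 0 of them, against 0.0406% of all genes with an adjusted p, and limma on log2(TPM + 1) called 0, against 0%. At an unadjusted p under 0.05 3 of the 48 passed in edgeR, where 2.19% of all genes did, and 3 in DESeq2, beside 499 of 17391 genes, and 2 in limma, beside 437 of 14203. In all, 33 of 48 fold changes were above 0, with a median of 0.13 (log2) beside 0.014 over all genes tested, of which 51.8% were above 0. On log2(TPM + 1) in limma the median of all genes moved to -0.11 and that of the members to -0.0013. Relative to the median of all genes the members lay 0.12 higher in edgeR, with 32 of 48 above that median, and 0.11 higher in limma, with 30. Without KO replicate 6 the edgeR median was 0.16, with 38 of 48 above 0. It was 0.071 with 29 above 0 without WT replicate 2 and 0.19 with 39 without WT replicate 1, the lowest and highest of the 8 libraries left out. With the term for Y-linked transcripts 38 of 48 were above 0, with a median of 0.20, and among the 5 libraries that carried those transcripts 38 were, with a median of 0.20. In either, edgeR called 0 members, with 7 and 6 at an unadjusted p under 0.05, where 456 of 14203 and 627 of 13674 genes were. The KO mean lay below the WT mean for 9 of 10 myeloid, 9 of 10 naive B cell and 9 of 10 T cell markers, whose sums were 54.1%, 81.7% and 76.3% of WT. Without KO replicate 4, left out after seeing the data, the myeloid sum was 33.9% of WT. The KO mean lay below for 0 of 6 erythroid and 2 of 8 cycling markers, with sums of 139% and 110.1%, and for 5 of 8 plasma cell and 5 of 10 germinal center markers, with sums of 99.8% and 100.4%. The part of these lists in the members' values was not tested.

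The member with the smallest p was Tyms, with a log2 fold change of 0.57 ± 0.16 (SE; 95% interval 0.21 to 0.94; edgeR, Benjamini-Hochberg adjusted p = 0.999), higher in 6 of 6 KO libraries than in either WT library. Next came the single-strand binding genes Rpa2, with 0.36 ± 0.14 (edgeR adjusted p = 0.999), and Rpa3, with 0.66 ± 0.27 (edgeR adjusted p = 0.999). None of these fold changes passed adjustment over all genes. The others of the 8 smallest p-values were primase, polymerase and origin genes, whose log2 fold changes by edgeR were Prim1 0.33 ± 0.16, Pole2 0.46 ± 0.23, Orc6 0.43 ± 0.21, Cdc6 0.27 ± 0.14 and Orc5 0.35 ± 0.19, each with an edgeR adjusted p of 0.999. The lead transcripts of all 8 were shorter than the members' median of 2581.5 bases, from 618 in Tyms to 2559 in Cdc6. The part of transcript length in these 8 fold changes was not tested. Single WT libraries moved some of these: without WT replicate 2 Tyms was at 0.37, Pole2 at 0.23 and Cdc6 at 0.16, and without WT replicate 1 Pole2 was at 0.74. On log2(TPM + 1) in limma, where the median of all genes was also lower, Rpa2 was at 0.22, Prim1 at 0.18, Orc6 at 0.26, Cdc6 at 0.15 and Orc5 at 0.15. Groups did not overlap, on normalized CPM, for 7 members higher in KO, where 2.68% of all genes had that pattern, and for 0 lower in KO, where 3.91% did. The 7 higher ones were Tyms, Rpa2, Rpa3, Prim1, Orc5, Rfc5 and Gins1. On TPM, KO overlapped WT for Prim1, Rfc5 and Gins1 of these. By role, the median log2 fold change was 0.20 for licensing, 0.0093 for MCM genes, 0.24 for helicase activation, 0.086 for polymerases and primase and 0.27 for the clamp, loader and single-strand binding genes. Relative to the median of all genes the MCM median was -0.0048 in edgeR and -0.055 on log2(TPM + 1) in limma, and that of the clamp, loader and single-strand binding genes 0.25 and 0.21. Without KO replicate 6 the edgeR median was 0.075 for MCM genes and 0.16 for polymerases and primase, with 8 of 9 of the latter above 0 in place of 5. It was 0.19 for licensing, 0.24 for helicase activation and 0.29 for the clamp, loader and single-strand binding genes. The MCM median without KO replicate 6 lay above that of all genes, 0.0054. With the term for Y-linked transcripts the MCM median was 0.11 beside 0.0039. The 95% interval lay within 2-fold either way for 45 of 48 members, against 51.7% of all genes tested, a comparison that does not adjust for the members' higher level. The intervals leave smaller changes undecided.

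Pooling WT with HET set 4 control libraries against the 6 KO libraries and shares WT and KO with the comparison above. In this set edgeR, with p adjusted by Benjamini-Hochberg over 13347 genes, called 0 of the 48 replication genes at an adjusted p under 0.1, against 0.00749% of all genes tested. DESeq2 called 0 of them, against 0.161% of all genes with an adjusted p, and limma on log2(TPM + 1) called 0, against 0%. At an unadjusted p under 0.05 2 of the 48 passed in edgeR, where 6.3% of all genes did, and 2 in DESeq2, beside 1207 of 17488 genes, and 2 in limma, beside 930 of 13347. The fold changes were split evenly, 24 of 48 above 0, with a median of 0.017 beside 0.023 over all genes. On log2(TPM + 1) in limma the median was -0.086 beside -0.083, with 24 of 48 above the median of all genes, and without KO replicate 6 the edgeR count was 26 with a median of 0.045. The sign of the median turned without WT replicate 2, at -0.036, without KO replicate 1, at -0.0030, and without KO replicate 5, at -0.026. Without HET replicate 2 it was 0.073, with 30 of 48 above 0, without KO replicate 4 0.039 and without WT replicate 1 0.0038. With the term for Y-linked transcripts it was 0.0092, with 24 of 48 above 0 and 0 called by edgeR, 1 at an unadjusted p under 0.05, where 706 of 13347 genes were.

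Mcm9 had the smallest p, with a log2 fold change of -0.54 ± 0.22 (SE; 95% interval -1.02 to -0.050; edgeR, Benjamini-Hochberg adjusted p = 0.744), on levels near 9.97 TPM. The other 7 named by p were, as log2 fold changes by edgeR, Rpa2 0.24 ± 0.11, Tyms 0.31 ± 0.14, Rfc3 0.23 ± 0.12, Pold2 0.24 ± 0.12, Rpa3 0.39 ± 0.21, Mcm6 -0.26 ± 0.14 and Gins4 0.26 ± 0.14, all with an edgeR adjusted p of 0.744. Tyms was at 0.17 without WT replicate 2, and Rpa3 at 0.22 without KO replicate 1. On log2(TPM + 1) in limma Rpa2 was at 0.11, Rfc3 at 0.10, Pold2 at 0.088, Rpa3 at 0.24, Gins4 at 0.11 and Mcm6 at -0.40. Their groups overlapped on normalized CPM: 0 members were higher and 0 lower in every KO library than in every control, where 0.532% and 0.944% of all genes were. 1 of the 8 MCM genes was above 0, with a median of -0.16, while 7 of the 9 clamp, loader and single-strand binding genes were, with a median of 0.13. Relative to the median of all genes the MCM median was -0.19 in edgeR and -0.21 on log2(TPM + 1) in limma, and the clamp group's 0.11 and 0.073. Without KO replicate 6 the edgeR medians were -0.10 and 0.16. Intervals lay within 2-fold either way for 47 of 48, all but Mcm9, against 62.3% of all genes tested, again without adjusting for the members' higher level.

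KO and HET cells both carried Vav-Cre and differ in 1 Zbtb38 allele. Between them edgeR, with p adjusted by Benjamini-Hochberg over 14354 genes, called 0 of the 48 replication genes at an adjusted p under 0.1, against 0.00697% of all genes tested. DESeq2 called 0 of them, against 3.78% of all genes with an adjusted p, and limma on log2(TPM + 1) called 0, against 0.00697%. At an unadjusted p under 0.05 5 of the 48 passed in edgeR, where 10.2% of all genes did, and 6 in DESeq2, beside 1979 of 17488 genes, and 5 in limma, beside 1101 of 14354. The gene called over the whole table was Hnrnpll, an RNA-binding protein gene outside the replication list and named after its values were seen, listed at 0 TPM in both HET libraries at 2.48 and 2.62 in WT and at 0.812 to 2.13 in KO. It was also the gene called in HET against WT. Of the members 15 of 48 were above 0, with a median of -0.088 beside 0.068 over all genes, of which 56.3% were above 0. Without KO replicate 6 the count was 18 and the median -0.066, and without HET replicate 1 they were 11 and -0.15, the medians nearest to and farthest from 0 of the 8 libraries left out. The count was highest without HET replicate 2, at 19. With the term for Y-linked transcripts 9 of 48 were above 0, with a median of -0.17, and among the 5 libraries near 0 for those transcripts 9 were, with a median of -0.16. In either, edgeR called 0 members, with 11 and 9 at an unadjusted p under 0.05, where 1607 of 14354 and 1356 of 13466 genes were. On log2(TPM + 1) in limma the median of the members was -0.20 beside -0.041 over all genes.

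The 3 members with the smallest p were Pole, with a log2 fold change of -0.61 ± 0.24 (SE; edgeR, Benjamini-Hochberg adjusted p = 0.434), Pola1, with -0.66 ± 0.26 (edgeR adjusted p = 0.435), and Mcm6, with -0.40 ± 0.17 (edgeR adjusted p = 0.464). None passed the threshold. Pole was at -0.23 on log2(TPM + 1) in limma and at -0.12 on length-scaled counts. All 5 members at an unadjusted p under 0.05 were lower in KO, the other 2 being Mcm9 and Rfc1. The lead transcripts of all 5 were longer than the members' median of 2581.5 bases, from 2910 in Mcm6 to 7163 in Pole. The part of transcript length in these 5 fold changes was not tested. On normalized CPM 9 members were lower in every KO than in every HET library, where 8.12% of all genes were, and 0 were higher, where 5.77% were. Of these 9, Pole, Rfc1 and Dbf4 overlapped between KO and HET on TPM. By role, 0 of 8 MCM genes, 2 of 9 polymerase and primase genes and 5 of 9 clamp, loader and single-strand binding genes were above 0, with medians of -0.30, -0.18 and 0.0071. Relative to the median of all genes these medians were -0.37, -0.25 and -0.061 in edgeR and -0.39, -0.19 and -0.075 on log2(TPM + 1) in limma. The edgeR counts above 0 without KO replicate 6 were 1 of 8, 1 of 9 and 6 of 9. The medians of these roles were then -0.25, -0.19 and 0.042. The KO mean also lay below the HET mean for 8 of 8 cycling and 9 of 10 germinal center markers, and above it for 10 of 10 myeloid, 9 of 10 naive B cell, 9 of 10 T cell, 7 of 8 plasma cell and 6 of 6 erythroid markers. Their part in the members' values was not tested.

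HET against WT rests on 2 libraries a side, with the spread shared across all 10 libraries, and shares its libraries with the comparisons above. The members lay mostly higher in HET, but edgeR, with p adjusted by Benjamini-Hochberg over 14354 genes, called 0 of the 48 replication genes at an adjusted p under 0.1, against 0.00697% of all genes tested. DESeq2 called 0 of them, against 1.26% of all genes with an adjusted p, and limma on log2(TPM + 1) called 0, against 0.00697%. At an unadjusted p under 0.05 5 of the 48 passed in edgeR, where 6.42% of all genes did, and 9 in DESeq2, beside 1281 of 17488 genes, and 5 in limma, beside 871 of 14354. Fold changes were above 0 for 45 of 48, against 48.7% of all genes, with a median of 0.24 beside -0.010. Leaving out single WT or HET libraries gave 40 to 44 of 48 above 0, and on log2(TPM + 1) in limma 43 were, with a median of 0.21 beside -0.029. By role that limma count was 9 of 9 for licensing, 8 of 8 for MCM genes, 5 of 8 for helicase activation, 7 of 9 for polymerases and primase, 9 of 9 for the clamp, loader and single-strand binding genes, 2 of 2 for Okazaki fragment joining and 3 of 3 for nucleotide synthesis. The 3 smallest p-values belonged to Cdc7, with a log2 fold change of 0.63 ± 0.23 (SE; edgeR, Benjamini-Hochberg adjusted p = 0.709), Tyms, with 0.49 ± 0.18 (edgeR adjusted p = 0.716), and Pola2, with 0.35 ± 0.14 (edgeR adjusted p = 0.738). Tyms was at 0.28 without WT replicate 2, 0.32 on log2(TPM + 1) in limma and 0.32 on length-scaled counts. The 2 WT libraries carried Y-linked transcripts and the 2 HET libraries stood near 0 for them, so the genotypes and that split cannot be told apart in these 4 libraries. With a term for the split, estimated from the KO libraries, 46 of 48 were above 0, with a median of 0.42 beside 0.015 over all genes. In that fit edgeR called 0 of the 48, with 10 at an unadjusted p under 0.05, where 1325 of 14354 genes were. Groups did not overlap on normalized CPM for 34 members higher in HET, where 23.5% of all genes had that pattern, and for 1 lower, where 24.5% had it. A fit on the 4 WT and HET libraries alone, in which 2 libraries a side set the spread, called 3 members: Pola1 at 0.73 (edgeR, Benjamini-Hochberg adjusted p = 0.0379), Cdc7 at 0.62 (edgeR adjusted p = 0.0753) and Pole at 0.54 (edgeR adjusted p = 0.0830), out of 523 genes called, which is 3.96% of all genes tested beside 3 of 48 members. These are the lowest adjusted p of the 3 genes over the alternatives, and the highest by edgeR, DESeq2 or limma was 1.00 for each. In the same HET libraries the summed cycling and germinal center markers were 124% and 103% of WT, and the myeloid, naive B cell, T cell, erythroid and plasma cell markers 15.8%, 54.6%, 60.5%, 68.2% and 88.8%. The HET mean lay below the WT mean for 9 of 10 T cell, 4 of 6 erythroid and 7 of 8 plasma cell markers. Cd2, Hbb-bt and Jchain led these 3 sums, and some less abundant markers fell further. Cd3g went from 27.2 and 23.9 TPM in WT to 2.67 and 5.40 in HET. Hbb-bs went from 14.6 and 41.7 to 7.55 and 1.51, and Sdc1 from 7.22 and 7.70 to 2.33 and 0.786. The part of all these lists in the members' values was not tested.

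**Figure D3:**
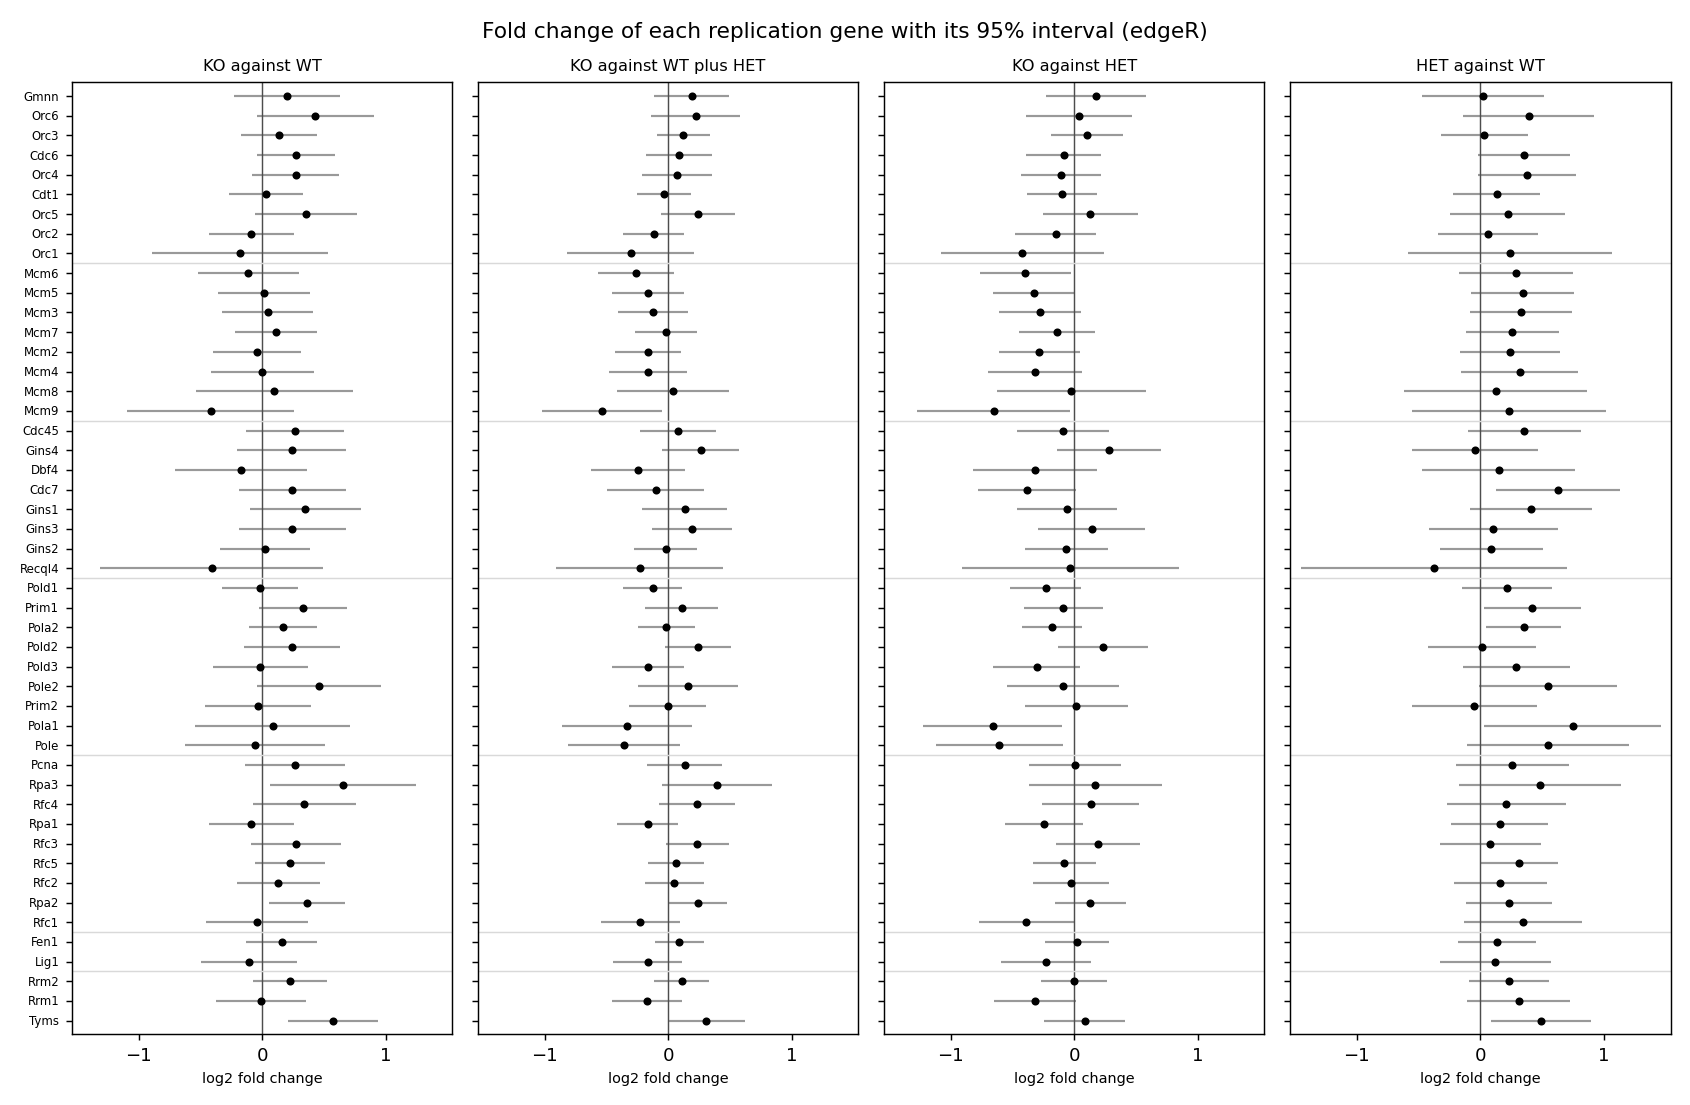
Log2 fold change of each replication gene (point) with its 95% interval (line) from edgeR in the 4 comparisons, grouped by role; the comparisons share libraries. No member is called in any panel, and 45 of 48 points lie right of 0 in HET against WT.

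The other genes of the pathway, 82 in 5 lists, gave 0 calls by edgeR in KO against WT. At an unadjusted p under 0.05 3 were higher and 0 lower, beside 142 and 169 of 14203 genes in all. In KO against WT plus HET they gave 0 calls, and at that p 5 were higher and 5 lower, beside 301 and 540 of 13347 genes in all. In KO against HET they gave 0 calls, and at that p 2 were higher and 14 lower, beside 683 and 784 of 14354 genes in all. In HET against WT they gave 0 calls, and at that p 10 were higher and 0 lower, beside 350 and 572 of 14354 genes in all. The fit on the WT and HET libraries alone called 6 of the 82, where it called 3.96% of all genes. Like the 48 members, they lay mostly higher in HET than in WT, 70 of 82 with a median of 0.25, or 68 of 82 on log2(TPM + 1) in limma. DESeq2 called 0, 1, 4 and 0 of the 82 in these 4 comparisons, in the order given, where it called 0.0406%, 0.161%, 3.78% and 1.26% of all genes with an adjusted p, and limma on log2(TPM + 1) called 0, 0, 0 and 0. The 4 that DESeq2 called in KO against HET, named after their values were seen, were all lower in KO: the topoisomerase genes Top2b at -0.76 (DESeq2 adjusted p = 1.86e-05) and Top2a at -0.59 (0.0279), the clamp loader gene Chtf8 at -0.67 (0.0367) and Rbl2 at -0.63 (0.0720). Those are the lowest over the alternatives, and the highest adjusted p by edgeR, DESeq2 or limma was 0.921 for each. Taken over the 82, 29 lay above the median of all genes in KO against WT plus HET by edgeR and 30 on log2(TPM + 1) in limma. In KO against WT plus HET the S phase entry regulators had 9 of 22 above 0 with a median of -0.012, the fork checkpoint genes 5 of 13 above 0 with a median of -0.031, the other origin and fork factors 7 of 22 above 0 with a median of -0.11, the chromatin genes 4 of 10 above 0 with a median of -0.056 and the other nucleotide genes 8 of 15 above 0 with a median of 0.0012.

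Top2b, a topoisomerase that relieves twisting of DNA, had the smallest p of these, at 58.3 and 48.5 TPM in WT, 75.6 and 75.7 in HET and 25.1 to 49.2 in KO (median 42.0). Its log2 fold change in KO against WT plus HET was -0.54 ± 0.13 (SE; edgeR, Benjamini-Hochberg adjusted p = 0.744), and DESeq2 gave -0.54 with an adjusted p of 0.0993, just past the threshold, within a range of 0.0993 to 0.992 over the alternatives. In each of the other lists the gene with the smallest p in that comparison, as edgeR log2 fold changes, was Rbl2 -0.50 ± 0.15, a relative of the retinoblastoma protein gene, Topbp1 -0.46 ± 0.15, an activator of the ATR checkpoint kinase, Dnmt1 -0.39 ± 0.18, the maintenance DNA methyltransferase, and Shmt1 0.29 ± 0.11, an enzyme of folate metabolism. All 4 had an edgeR adjusted p of 0.744, and Topbp1 was at -0.23 on length-scaled counts.

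Sequence near the start of these genes was examined for what the members share. RefSeq windows (GRCm38.p6) of 300 bases, 250 before and 50 after an annotated start, matched 39 of 48 members in 48 windows. The E2F motif, searched on both strands in the 4 spellings TTTCCCGC, TTTCGCGC, TTTGCCGC and TTTGGCGC, which can overlap one another, was in 16 of these windows (33.3%), 1 for each of 16 members. E2F factors are known regulators of S phase genes. The share was 2.26% of all 32851 windows of that length, and 5.23% of the 6563 windows with as many CpG as the median member window or more, where 9 of 24 member windows held it. Of 83 windows of the other pathway genes 19 held it (22.9%), and the difference from the members was not tested. The CCAAT box, searched as CCAAT on both strands, was in 54.2% of member windows and 37.4% of all windows, and the median number of CpG was 23.5 against 7. A match describes letters in a window and is not a measured binding site.

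Of 9 members with the motif before their RefSeq start, Mcm5, Mcm6 and Pola1 held it in a stretch free of annotated exons. For these, 80 bases around it are shown on the minus strand for Mcm6 (chr1:128359741-128359820) and Pola1 (chrX:93632250-93632329) and on the plus strand for Mcm5 (chr8:75109322-75109401), with E2F matches in capitals. In Mcm6 matches begin 110, 106 and 47 bases before the start, the first 2 overlapping. In Mcm5 they begin 153 and 149 bases before it and overlap, and in Pola1 the match begins 138 bases before it.
Mcm5: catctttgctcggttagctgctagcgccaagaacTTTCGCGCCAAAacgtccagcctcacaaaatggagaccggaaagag
Mcm6: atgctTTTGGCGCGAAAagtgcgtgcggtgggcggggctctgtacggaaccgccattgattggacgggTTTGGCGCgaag
Pola1: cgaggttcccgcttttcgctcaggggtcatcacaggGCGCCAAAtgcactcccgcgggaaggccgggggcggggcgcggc

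Fold changes of the members were also set out by whether the window held the motif. The 16 with a match had a median log2 fold change of 0.066 in KO against WT and -0.079 in KO against WT plus HET, and the 23 without one had 0.24 and 0.080. In KO against HET the medians were -0.18 and -0.088, and in HET against WT 0.25 and 0.26. These differences were not tested.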

How the data were processed

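RNA-seq of 10 libraries was analysed. The authors extracted RNA with NucleoSpin XS kits and quantified paired-end reads on Gencode vM17 transcripts with Salmon (version 0.9.1 in the submitters' processing notes); the deposited estimated counts and the deposited TPM are per transcript and were summed per gene here, and counts were rounded. Reads from near-identical copies are shared out by Salmon's estimate. Genes were tested with edgeR 4.0.16 (TMM, filterByExpr, quasi-likelihood F test, Benjamini-Hochberg adjustment, calls at adjusted p under 0.1) in R 4.3.3 and summarized in Python 3.11.15, with KO against WT on those 8 libraries and the other comparisons on all 10; standard errors are the fold change over the root of F. DESeq2 1.42.0, limma 3.58.1 (trend), other filters, scalings, a replicate block and left-out libraries were alternatives, and fits with a term for Y-linked transcripts or within that split were chosen after seeing the data. The code was tested on simulated data. Positions are from Gencode vM21 (GRCm38), and limma's pseudocount was 1. Libraries of 1 genotype differed by more than counting noise (chi-square per gene 27.8 or more). Named genes are those with the 8 smallest p-values in the first 2 comparisons and the 3 smallest in the others, the highest and lowest members, and 1 gene per pathway list. Members and lists were chosen with earlier results of these data known. Some single genes of the marker lists are not reported here.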

Additional observations from a re-analysis of the deposited data

Results flagged for a closer look

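Within the KO group, 5 of 79 quantities examined had a library far from the other 5, where chance alone gives about 3.95 (1 in 20). KO replicate 6 was lowest for Pole2, at 28.4 TPM beside 40.9 in the next library, for Rfc2, at 107 TPM beside 129, and for the summed clamp, loader and single-strand binding genes, at 1362 TPM beside 1650.2. KO replicate 2 was highest for Zbtb38, at 46.1 TPM beside 23.7. KO replicate 4 was highest for the summed myeloid markers, at 997 TPM beside 314.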

How the results depend on the processing

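Of 614 values of named genes under the alternatives, 591 kept their direction and their side of the threshold, 16, all of Zbtb38, lost the call, 7 gained one (5 of Zbtb38, 1 of Cdc7 and 1 of Top2b) and 0 changed sign. Counts of members called stayed at 0 by edgeR, DESeq2 and limma in every alternative except the fit on WT and HET alone, which called 3. Genes called in all, 1 by edgeR in each comparison, moved as follows. In KO against WT they were 0 at an adjusted p under 0.05, 7 by DESeq2, 0 and 3 by limma with a pseudocount of 1 and 0.1, 0 on length-scaled counts, 2 in 1 fit on all libraries and 0 to 2 without single libraries. In KO against WT plus HET they were 25 by DESeq2, 0 and 0 by limma, 0 on length-scaled counts and 1 to 2 without single libraries. In KO against HET they were 505 by DESeq2, 6 by limma with 0.1, 2 with no filter, 0 with at least 10 counts in every library, 0 on the 2 groups alone and 0 to 5 without single libraries. In HET against WT they were 168 by DESeq2, 5 by limma with 0.1, 0 with at least 10 counts, 523 on the 2 groups alone and 0 without any single library. In fits added after seeing the data, a term for Y-linked transcripts gave 0, 1, 3 and 2 in the 4 comparisons in that order (Zbtb38 in the second, and Hnrnpll, Hba-a2 and Igkv2-137 in the third), and the libraries of 1 side of that split gave 0 in KO against WT and 0 in KO against HET; the member median in HET against WT was 0.42 with the term. Member medians under limma with 1 and 0.1 were -0.0013 and -0.0014 in KO against WT, -0.086 and -0.091 in KO against WT plus HET and -0.20 and -0.21 in KO against HET. The cause of these shifts was not tested.

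With the replicate number as a replicate block, genes called were 1 in KO against WT, 0 in KO against WT plus HET, 4 in KO against HET and 66 in HET against WT, with 0 members called in each. The gene called in KO against WT was Lyz2 (-3.58, edgeR adjusted p = 0.0429, up to 1.00 over the alternatives), and those in KO against HET were the Y-linked Ddx3y, Eif2s3y, Kdm5d and Uty, all named after their values were seen. Zbtb38 was at -2.09 (edgeR adjusted p = 0.159) in KO against WT and -1.86 (edgeR adjusted p = 0.601) in KO against WT plus HET, within the ranges above. Named genes moved by over 1.5 times under the block were Orc6 in KO against WT, at 0.66, and in KO against WT plus HET Mcm9 at -0.25, Pold2 at 0.13, Rpa3 at 0.59 and Shmt1 at 0.15. The numbers 1 and 2 each occur in all 3 genotypes, and the sources used here do not say that they mark pairs. Deviations of same-numbered libraries correlated at -0.00798 to 0.127, which can show little, since the 2 WT libraries deviate as mirror images, as do the 2 HET libraries. All 48 members passed the low-count filter in each comparison, and differences under 2-fold in single members were often within the 95% intervals.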
